A study of Rattus norvegicus with 19 samples.

Results

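The genes described here are the receptors for the inhibitory transmitter GABA, the genes that make GABA and load it into vesicles, and genes whose RNA marks the types of inhibitory interneuron. Their RNA was counted in whole hippocampi of male rats of the Sprague Dawley strain, in 4 genotypes. The list is one of symbols, chosen with earlier results of these data known. Of 31 listed symbols, 30 were in the count files, which hold 32623 genes in all, and 29 passed the filter on low counts that left 15440 genes for testing. The list held 10 GABA-A receptor subunits, 2 GABA-B receptor subunits, 1 scaffold protein of inhibitory synapses, 3 genes of GABA synthesis and vesicular transport, 10 calcium-binding proteins, peptides and secreted proteins of interneuron types, and 5 transcription factors. Dlx6 was not found under its symbol. Npy, which encodes neuropeptide Y and is known from many hippocampal interneurons, had 0 reads in all 19 libraries and was not tested. A count of 0 allows a level of up to 0.0790 to 0.179 CPM (reads of a gene scaled to the same total in every library), depending on the library, and this limit covers counting error alone. Whether reads of Npy were lost in alignment or counting was not tested, so the 0 may not reflect its RNA level.

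The rats carried either the reference interval, a deletion or a duplication of the region of rat chromosome 1 between Sult1a1 and Spn that matches human 16p11.2, made by CRISPR/Cas9 in this outbred strain. Wild-type rats (wt, n = 6) carried 2 copies of the interval, rats with 1 deleted chromosome (Del/+, n = 4) carried 1 copy, and rats with 1 duplicated chromosome (Dup/+, n = 5) carried 3 copies. Rats with both rearrangements (Del/Dup, n = 4) carried 2 copies, both on the same chromosome. No drug or other treatment was given in the labels, and the age of these animals was not stated there. Whole hippocampal tissue was used, with no sorting of cells.

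GABA-A receptors are chloride channels assembled from alpha, beta and gamma or delta subunits, and the alpha and delta subunits set where the channel sits and how fast it closes. GABA-B receptors are dimers of Gabbr1 and Gabbr2 that act through G proteins. GABA is made from glutamate by the enzymes of Gad1 and Gad2 and loaded into vesicles by the transporter of Slc32a1. In the hippocampus the interneurons are few, and their types are told apart by parvalbumin (Pvalb), somatostatin (Sst), vasoactive intestinal peptide (Vip), cholecystokinin (Cck), calretinin (Calb2) and others.

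Reads assigned to genes came to 16191192 to 38760645 per library. In 7 libraries, which were Del/+ replicates 1 to 3 and all 4 of Del/Dup, over 55% of the reads in the file were multi-mapped, while the other 12 were below that share. With a term for that share, Del/+ against wt or Dup/+ rests on Del/+ replicate 4 alone, since all wt and Dup/+ libraries have a low share. The labels were checked on genes of the interval. Mapk3 was at 94.8, 49.2, 141 and 90.6 CPM on average in wt, Del/+, Dup/+ and Del/Dup. The library called wt replicate 5 is named wild type in its description and Dup/+ in its genotype field, and was counted as wt. Its Mapk3 level was 92.6 CPM, against 88.5 to 98.4 in the other wt libraries and 129 to 154 in Dup/+. All 7 listed markers of excitatory hippocampal neurons had reads in every library, with sums of 4869 CPM on average in wt, 4175 in Del/+, 4489 in Dup/+ and 4104 in Del/Dup. Libraries also differed in markers of tissue that lies beside the hippocampus. The summed level of 8 neocortex markers was 337 CPM in Del/+ replicate 2, 275 in Del/Dup replicate 2 and 261 in Del/+ replicate 4, against 123 to 197 in the other 16 libraries. A single gene, Tshz2, held 189, 96.03 and 136 CPM of these 3 sums. Without Tshz2 the sums were 148, 179 and 125 CPM, against 90.1 to 144 in the other 16 libraries, so that Del/+ replicate 4 no longer stood apart. Of the 7 neocortex markers tested, 1 was higher in Del/+ than in wt at an unadjusted p under 0.05, and none passed. At such a p 2 were higher in Del/+ than in Dup/+, and 3 were higher and 1 lower in Del/Dup than in wt, with 0 called. The summed level of 6 markers of thalamus and habenula was 57.6 to 66.0 CPM in Del/+, against 29.5 to 41.6 in wt, 32.7 to 42.3 in Dup/+ and between 32.1 and 54.9 in Del/Dup, so that all 4 Del/+ libraries lay above the other 15. Slc17a6 and Prkcd together held 44.3 to 49.0 CPM of the Del/+ sums, against 19.1 to 31.2 in wt and 22.3 to 32.0 in Dup/+, while Del/Dup ranged from 21.1 to 41.4. The other 4 markers summed to 12.7 to 17.1 CPM in Del/+, against 9.62 to 11.9 in wt and 10.3 to 11.2 in Dup/+, and overlapped Del/Dup (10.4 to 13.5). Of these 6 markers 4 were higher in Del/+ than in wt at an unadjusted p under 0.05, with 0 called, and 4 were higher than in Dup/+, with 1 called. No marker of either list was at 0 in a whole group. The sum of 7 choroid plexus markers ran from 4.45 to 36.5 CPM in wt and reached 1285 in Del/+, 414 in Dup/+ and 1230 in Del/Dup.

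Of the 29 genes tested, Gabrb2 and Tac3 differed between genotypes, and the others did not pass the test in any comparison. Gabrb2, a beta subunit of the GABA-A receptor, was higher in Del/+ than in wt and than in Dup/+. Tac3, the precursor of the peptide neurokinin B, was lower in Del/+ than in Dup/+. No listed gene passed in Dup/+ or in Del/Dup against wt. In whole tissue, fewer cells of a type and less RNA per cell cannot be told apart.

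The counts of listed genes were read against those of all 15440 genes, with edgeR's quasi-likelihood F test and a Benjamini-Hochberg adjusted p under 0.05 over all of them. In Del/+ against wt the test called 1 of the 29 genes, as higher, and it called 0.771% of all genes, 0.304% as higher. In Dup/+ against wt it called 0, and 0.272% of all genes. In Del/Dup against wt it called 0, and 0.0907% of all genes. In Del/+ against Dup/+ it called 2, 1 higher and 1 lower, and 0.784% of all genes (0.298% higher and 0.486% lower). A slope over the number of interval copies, with wt and Del/Dup both at 2, called the same 2 genes, 1 in each direction, and 0.576% of all genes (0.395% rising and 0.181% falling with copies). At an unadjusted p under 0.05 the numbers were 8 genes in Del/+ (27.6%, against 18.4% of all genes), 1 in Dup/+ (3.45%, against 8.94%), 8 in Del/Dup (27.6%, against 16.2%), 7 in Del/+ against Dup/+ (24.1%, against 13.5%) and 6 for the slope (20.7%, against 11.5%). Groups without overlap, in either direction, were found for 2 of the 29 in Del/+ against wt (6.9%, against 4.94% of all genes), 0 in Dup/+ (against 1.17%), 1 in Del/Dup (3.45%, against 2.56%) and 4 in Del/+ against Dup/+ (13.8%, against 5.3%). DESeq2 called 3 of the 29 in Del/+ (3.83% of all genes), 0 in Dup/+ (0.518%) and 0 in Del/Dup (1.19%).

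By point estimate 15 of the 29 genes were above wt and 14 below it in Del/+, 12 above and 17 below in Dup/+, and 10 above and 19 below in Del/Dup. Their median log2 fold change was 0.0045 in Del/+, -0.027 in Dup/+ and -0.047 in Del/Dup, each against wt. The median size of the change, without its sign, was 0.12 in Del/+, where it was 0.093 over all genes tested, and 0.168 in Del/Dup, where it was 0.091 over all genes tested. With the thalamus and habenula sum as a covariate the sign of the estimate turned for 16 of the 29 genes in Del/+ against wt, 14 in Del/+ against Dup/+ and 13 for the slope, none of them to a call. Over all alternatives it turned at least once for 24, 20 and 16 genes in these comparisons, for 11 in Dup/+ against wt and for 9 in Del/Dup against wt. The map of all listed genes by library shows that several columns stood apart within a genotype, above all Del/+ replicate 2 and Del/Dup replicate 2.

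**Figure D1:**
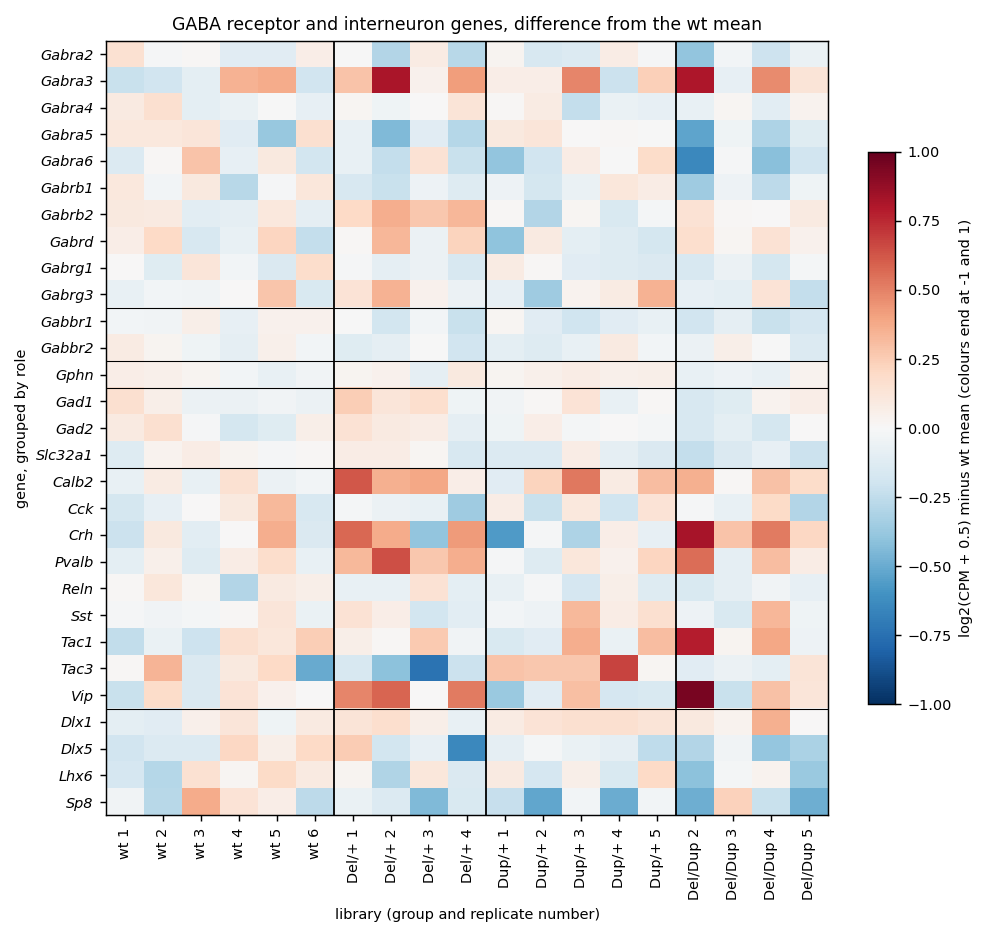
Level of the 29 tested genes (rows, grouped by role) in the 19 libraries (columns, grouped by genotype), as log2(CPM + 0.5) minus the mean of the 6 wt libraries. Colours end at -1 and 1. Pvalb, Gabra3 and Vip are above the wt mean and Gabra5 is below it in Del/+ replicate 2 and in Del/Dup replicate 2, and Gabrb2 is above it in all 4 Del/+ libraries.

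**Figure D2:**
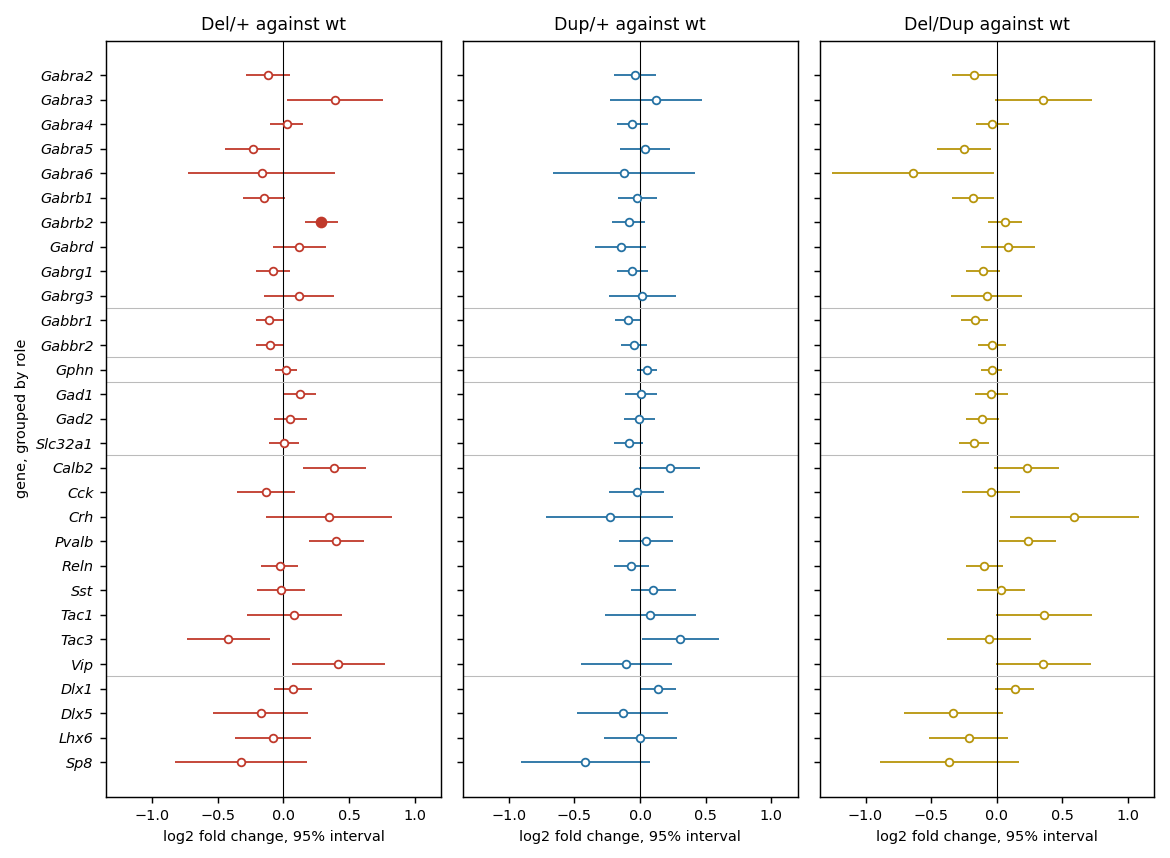
Fitted log2 fold change against wt (points) with its 95% interval (bars) for the 29 tested genes in Del/+, Dup/+ and Del/Dup. The filled point marks an adjusted p under 0.05, which was reached by Gabrb2 in Del/+ alone, and the largest estimates in either direction belong to genes of wide intervals, such as Crh and Gabra6 in Del/Dup.

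Among the GABA-A subunits, Gabrb2 was the gene that moved. Beta subunits form the GABA-binding face of the channel together with an alpha subunit. Gabrb2 (ENSRNOG00000003680) was at 70.8 to 81.8 CPM (median 76.3) in the 6 wt libraries and at 87.6, 98.4, 91.8 and 95.8 CPM in Del/+ replicates 1 to 4. It was at 77.0, 62.2, 77.1, 68.5 and 75.0 CPM in Dup/+ replicates 1 to 5 and at 84.3, 76.9, 76.6 and 81.0 in Del/Dup replicates 2 to 5. All 4 Del/+ libraries lay above all wt libraries (as for 2.23% of all genes), above all Dup/+ libraries (2.33% of all genes) and above the 4 Del/Dup libraries, while Dup/+ and Del/Dup both overlapped wt. Means were 76.4 ± 5.59 CPM (SD, n = 6) in wt, 93.4 ± 4.73 (n = 4) in Del/+, 72.0 ± 6.51 (n = 5) in Dup/+ and 79.7 ± 3.68 (n = 4) in Del/Dup. The log2 fold change in Del/+ against wt was 0.29 ± 0.061 (SE), with an edgeR adjusted p of 0.0288. In Del/+ against Dup/+ it was 0.38 ± 0.064 (adjusted p = 0.00373). The level fell by 0.19 per added copy on the log2 scale (adjusted p = 0.00591), a call lost with the share term (slope -0.17, adjusted p = 0.0821), with the thalamus and habenula covariate (-0.11, 0.356) and without the 3 libraries of highest neocortex sums (-0.14, 0.164). Neither Dup/+ (-0.088, 95% interval -0.21 to 0.034) nor Del/Dup (0.060, -0.069 to 0.19) passed against wt.

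The call of Gabrb2 against wt was lost when 1 library was left out in 4 of 19 cases, with adjusted p-values without wt replicate 3 of 0.0774, without wt replicate 6 of 0.0560, without Del/+ replicate 2 of 0.140 and without Del/+ replicate 4 of 0.0982, while the change stayed at 0.27 to 0.28 and the call against Dup/+ was kept in each of these fits. The call against wt was also lost with the replicate block and without the 3 libraries of highest neocortex sums. The estimate was above 0 under all 33 alternatives (0.12 to 0.33 against wt and 0.24 to 0.41 against Dup/+). Fits with markers of neighbouring tissue as a covariate gave lower estimates. Within genotypes Gabrb2 and the thalamus and habenula sum did not pass (r = 0.45, adjusted permutation p = 0.207). With the neocortex sum as a covariate the Del/+ change was 0.21 (adjusted p = 0.236), with that sum without Tshz2 it was 0.26 (adjusted p = 0.0258), and with the markers of thalamus and habenula it was 0.12 (adjusted p = 0.951). With a term for high multi-mapped share, where Del/+ was replicate 4 alone, it was 0.33. Since all 4 Del/+ libraries had the highest thalamus and habenula sums, that signal and the genotype cannot be told apart. Against Dup/+ the change of Gabrb2 was 0.24 with the thalamus and habenula covariate (adjusted p = 0.730) and 0.32 without the 3 libraries of highest neocortex sums (0.134). With the share term, again for Del/+ replicate 4 alone, it was 0.41. With the 4 thalamus and habenula markers other than Slc17a6 and Prkcd as the covariate, the change was 0.28 against wt (adjusted p = 0.269), 0.36 against Dup/+ (0.182) and -0.15 for the slope (0.274).

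The start of Gabrb2 is shown because it had the lowest adjusted p of the listed genes, and that of Pvalb because it came next in Del/+. Both windows run from 250 bases before the annotated RefSeq start to 50 after it in the rat assembly GRCr8, which is not the assembly the reads were aligned to, and are printed 5′ to 3′ on the strand of the gene. Gabrb2 lies at chr10:27439543-27439842 on the plus strand and Pvalb at chr7:111666240-111666539 on the minus strand. Capitals mark the motif matches.
Gabrb2: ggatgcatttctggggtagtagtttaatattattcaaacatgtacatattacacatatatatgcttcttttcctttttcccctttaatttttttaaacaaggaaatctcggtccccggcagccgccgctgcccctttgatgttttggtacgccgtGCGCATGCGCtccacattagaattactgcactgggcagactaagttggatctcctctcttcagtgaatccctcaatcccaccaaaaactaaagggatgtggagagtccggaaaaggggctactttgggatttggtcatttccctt
Pvalb: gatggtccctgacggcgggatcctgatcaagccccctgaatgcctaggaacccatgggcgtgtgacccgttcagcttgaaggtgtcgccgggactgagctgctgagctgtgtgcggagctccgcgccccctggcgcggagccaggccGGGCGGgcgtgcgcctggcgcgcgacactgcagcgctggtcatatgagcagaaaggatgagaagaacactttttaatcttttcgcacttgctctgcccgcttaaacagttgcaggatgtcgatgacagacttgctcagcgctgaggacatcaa
The window of Gabrb2 holds 44% G and C and that of Pvalb 60.7%. Capitals in Gabrb2 are 2 overlapping matches, 1 on each strand, of GCATGCGC, the core bound by nuclear respiratory factor, the first of them 95 bases before the start. This motif was added after the Gabrb2 sequence had been read, and 2.47% of 33469 RefSeq rat promoters of the same length hold it on either strand, with Gabrb1 the other listed gene to do so. Capitals in Pvalb are a GC box, GGGCGG, 103 bases before the start. GGGCGG stands in 33.1% of all promoters and in 15 of the 24 listed genes that matched an entry, while TATAAA stands in 14.2% of all and in 4 of the 24 (Gabra3, Gad1, Sp8 and Vip), and the cyclic AMP response element TGACGTCA in 1.83% of all and in Sst alone of the 24. A match describes these letters and does not show that a factor binds there. Tac3 had no entry.

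The other 9 GABA-A subunits did not pass in any comparison, and they did not move as a block. Gabra3, an alpha subunit common in neocortex and thalamus, was at 28.1 to 42.7 CPM (median 29.7) in wt, at 40.2, 58.4, 34.0 and 44.2 in Del/+, at 34.6, 34.5, 46.4, 28.4 and 38.9 in Dup/+ and at 58.1, 31.1, 45.8 and 36.0 in Del/Dup. Its highest values were in the Del/+ and the Del/Dup library with the highest neocortex sums, and its log2 fold change in Del/+ was 0.39 (adjusted p = 0.237), and -0.24 with the thalamus and habenula covariate (0.965). Gabra5, the alpha subunit of extrasynaptic channels that is abundant in hippocampal pyramidal cells, was lowest in those same libraries. It was at 184 to 266 CPM (median 256) in wt, at 226, 175, 220.1 and 195 in Del/+, at 255, 259.6, 239, 241 and 238 in Dup/+ and at 166, 231, 193 and 219 in Del/Dup. All 4 Del/+ libraries were below all 5 Dup/+ libraries for Gabra5, as for 2.97% of all genes. The log2 fold change was -0.27 with an adjusted p of 0.251, so the difference did not pass. Its Del/+ change against wt was -0.23 (adjusted p = 0.217), and 0.16 with the thalamus and habenula covariate (0.954), which also turned the change against Dup/+ to 0.067.

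Gabrd, the delta subunit that partners Gabra4 in tonic channels of dentate granule cells, was at 31.3 ± 4.13 CPM in wt, 34.1 ± 4.35 in Del/+, 28.2 ± 3.42 in Dup/+ and 33.2 ± 1.69 in Del/Dup, and its Del/+ against Dup/+ change was 0.27 (adjusted p = 0.248). Gabra4 was level across genotypes, at 174, 177, 167 and 169.6 CPM on average, with a Del/+ change of 0.025 and a 95% interval of -0.10 to 0.15. In Del/Dup, 4 of the 10 subunits (40%) had an unadjusted p under 0.05 and all 4 estimates were negative, where 8.06% of all genes were lower at such a p. The 7 excitatory neuron markers had a median change of -0.24 in the same comparison, with 3 of them (42.9%) lower at an unadjusted p under 0.05, and of -0.21 in Del/+, with 4 (57.1%) lower, against 9.68% of all genes in Del/+. Their part in the subunit values was not tested. The 4 subunits were Gabra2 (-0.17, adjusted p = 0.306), Gabrb1 (-0.18, 0.262), Gabra5 (-0.25, 0.235) and Gabra6 (-0.64, 0.298), by edgeR. Gabra6 is the alpha subunit of cerebellar granule cells, and it had only 2 to 20 reads per library. The gamma subunits Gabrg1 and Gabrg3 had changes between -0.105 and 0.12 in the 3 comparisons against wt, none past the test.

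In GRCr8 the listed subunits lie in small groups, with Gabra4, Gabrb1 and Gabrg1 on chromosome 14, Gabra6 and Gabrb2 on chromosome 10, Gabra5 and Gabrg3 on chromosome 1 and Gabra3 on the X chromosome. Gabra6, on the same chromosome as Gabrb2, had a Del/+ change of -0.17 at its low count. Gabra5 and Gabrg3 share a chromosome with the rearranged interval, and their changes against wt were -0.23 and 0.12 in Del/+, 0.038 and 0.015 in Dup/+ and -0.25 and -0.078 in Del/Dup.

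The GABA-B receptor genes were below wt by point estimate in all 3 other genotypes, and neither passed. Gabbr1, the subunit that binds GABA, was at 1324 to 1458 CPM (median 1413) in wt, at 1397, 1235, 1377 and 1202 in Del/+, at 1424, 1299, 1224, 1299.5 and 1332 in Dup/+ and at 1228, 1318, 1204 and 1248 in Del/Dup. All 4 Del/Dup libraries lay below all 6 wt libraries, as for 1.22% of all genes. The log2 fold change in Del/Dup was -0.17 ± 0.050 (unadjusted p = 0.00300, edgeR adjusted p = 0.160). Gabbr2, the subunit that couples to the G protein, was at 441 CPM in wt and 431 in Del/Dup (change -0.035). Gphn encodes gephyrin, which anchors GABA-A and glycine receptors at the synapse. Its changes against wt were 0.019 in Del/+, 0.052 in Dup/+ and -0.040 in Del/Dup. It also varied least from animal to animal of all the listed genes, with a biological coefficient of variation (the spread between animals of a group beyond counting error) of 0.0447. Only 4.16% of all genes tested varied less.

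The genes of GABA synthesis and vesicular transport did not differ between genotypes by the test. Gad1, which makes the enzyme behind most of the GABA in cell bodies, was at 263 to 306 CPM (median 266) in wt, at 325, 299, 309 and 267 in Del/+, at 267, 276, 301, 260.3 and 277 in Dup/+ and at 246, 253, 281 and 288 in Del/Dup. The groups overlapped, and the Del/+ change was 0.12 with a 95% interval of -0.0028 to 0.25. Gad2, whose enzyme sits at synaptic terminals, was at 268 to 339 CPM (median 308) in wt, at 335, 322, 319 and 285 in Del/+, at 294, 317, 299.5, 303 and 299 in Dup/+ and at 272, 283, 268 and 304 in Del/Dup, with a Del/+ change of 0.053 (-0.072 to 0.18). Slc32a1, the vesicular transporter, was at 59.4 to 68.4 CPM (median 66.0) in wt, at 68.6, 68.8, 66.1 and 58.3 in Del/+, at 59.1, 59.1, 68.6, 61.2 and 58.9 in Dup/+ and at 54.9999, 59.0, 61.4 and 56.2 in Del/Dup. In Del/Dup 3 of 4 libraries for Slc32a1 were below all of wt, and the change was -0.17 ± 0.055 (unadjusted p = 0.00561, edgeR adjusted p = 0.174).

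**Figure D3:**
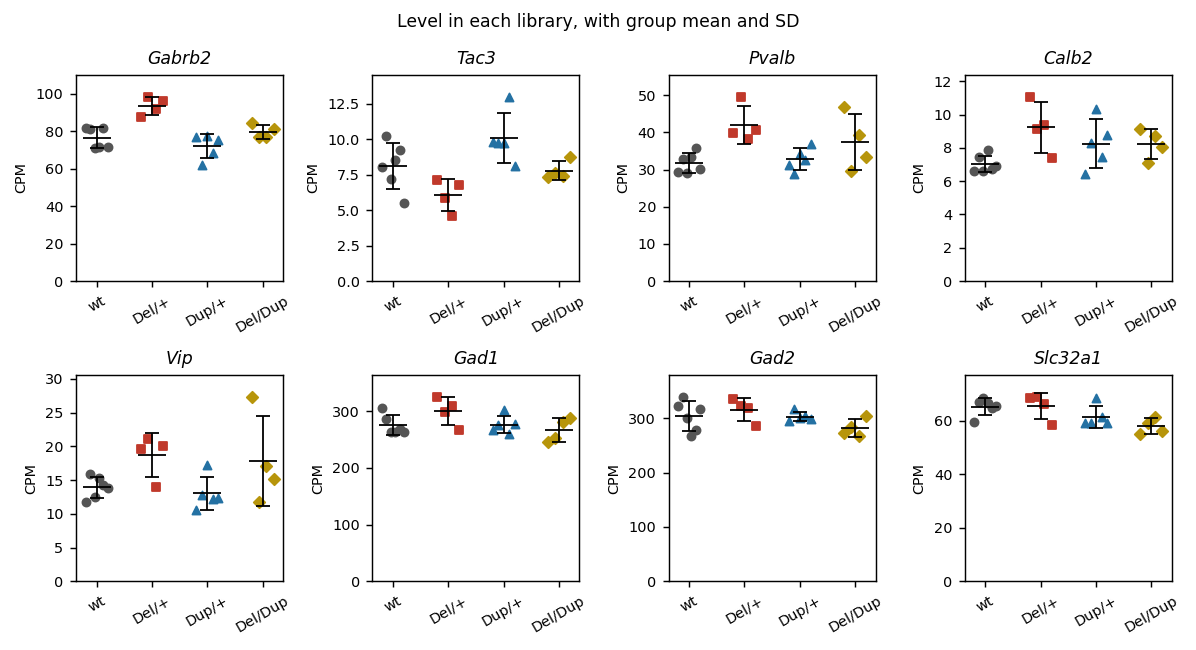
CPM of 8 listed genes in each library (points), by genotype, with the group mean and SD (bars). The 4 Del/+ libraries lie above all others for Gabrb2 and below all Dup/+ libraries for Tac3, and they lie above all wt libraries for Pvalb, while Gad1, Gad2 and Slc32a1 overlap between all genotypes.

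Among the markers of interneuron types, Tac3 was the gene that passed. In the forebrain neurokinin B is made by subsets of interneurons and, in the habenula and hypothalamus, by projection neurons. Tac3 (ENSRNOG00000004229) was at 5.49 to 10.2 CPM (median 8.30) in wt, at 7.09, 5.87, 4.58 and 6.80 in Del/+, at 9.82, 9.73, 9.74, 13.0 and 8.11 in Dup/+ and at 7.34, 7.64, 7.44 and 8.78 in Del/Dup. All 4 Del/+ libraries lay below all 5 Dup/+ libraries, as for 2.97% of all genes, while wt overlapped both. Means were 8.12 ± 1.65 CPM in wt, 6.08 ± 1.13 in Del/+, 10.1 ± 1.79 in Dup/+ and 7.80 ± 0.664 in Del/Dup. The log2 fold change in Del/+ against Dup/+ was -0.73 ± 0.16 (SE, edgeR adjusted p = 0.0340), and the level rose by 0.36 per added copy on the log2 scale (adjusted p = 0.0259). Against wt, Tac3 did not pass in Del/+ (-0.42, adjusted p = 0.150), in Dup/+ (0.31, 0.539) or in Del/Dup (-0.060, 0.869).

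The calls of Tac3 were close to the threshold. Left out in turn, the libraries that ended the Del/+ against Dup/+ call were Del/+ replicate 2 (0.126), Del/+ replicate 3 (0.0928), Del/+ replicate 4 (0.0529), Dup/+ replicate 1 (0.0614), Dup/+ replicate 2 (0.0714), Dup/+ replicate 3 (0.0615) and Dup/+ replicate 4 (0.0981), adjusted p in parentheses, with the change at -0.60 to -0.78 in these fits. Those that ended the call of its slope were Del/+ replicate 2 (0.0968), Del/+ replicate 3 (0.0815), Dup/+ replicate 2 (0.0515), Dup/+ replicate 3 (0.0519) and Dup/+ replicate 4 (0.1002), with slopes of 0.30 to 0.37. The slope call was also lost with the share term (0.32, adjusted p = 0.223), the neocortex covariate (0.36, 0.0713), the thalamus and habenula covariate (0.40, 0.107, or 0.28, 0.399 without Slc17a6 and Prkcd) and without the 3 libraries of highest neocortex sums (0.37, 0.137). Over all 32 alternatives the slope lay between 0.28 and 0.40. The Del/+ against Dup/+ change of Tac3 was -0.74 with the neocortex covariate (adjusted p = 0.0914, and 0.0555 without Tshz2 in the sum), -0.98 with that of thalamus and habenula (adjusted p = 0.190) and -0.52 with that without Slc17a6 and Prkcd (0.486). With the term for multi-mapped share, where Del/+ was replicate 4 alone, it was -0.56. It was -0.72 with only the Del/+ and Dup/+ libraries (0.0544) and -0.79 without the 3 libraries (0.196). Within genotypes the level of Tac3 and the neocortex sum gave r = 0.056, rho = 0.054, unadjusted permutation p = 0.844 and 0.843, adjusted p = 0.854 and 0.906 over 19 libraries.

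Pvalb (ENSRNOG00000006471), the calcium buffer of fast-spiking basket and chandelier cells, was next in Del/+ but did not pass. It was at 28.9 to 35.7 CPM (median 31.4) in wt, at 39.8, 49.6, 38.2 and 40.7 in Del/+, at 31.3, 28.8, 34.2, 32.6 and 36.8 in Dup/+ and at 46.9, 29.6, 39.3 and 33.3 in Del/Dup. All 4 Del/+ libraries lay above all wt libraries (as for 2.23% of all genes) and all Dup/+ libraries (2.33% of all genes), and Del/Dup overlapped all genotypes. The Del/+ change was 0.40 ± 0.10 against wt (unadjusted p = 0.000754, edgeR adjusted p = 0.0650) and 0.36 against Dup/+ (adjusted p = 0.145). DESeq2 called it in Del/+ against wt (adjusted p = 0.0118), and so did edgeR with only the wt and Del/+ libraries (0.0348), without Del/Dup replicate 2 (0.0215), without Del/Dup replicate 3 (0.0302) or with the neocortex sum without Tshz2 as a covariate (0.32, adjusted p = 0.00120). With the full neocortex sum the estimate was 0.21 (adjusted p = 0.331). With the thalamus and habenula markers as a covariate the Del/+ estimate for Pvalb went from 0.40 to -0.0632.

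Calb2 and Vip overlap in a class of interneurons that inhibit other interneurons. Calb2, the calcium-binding protein calretinin, was at 6.62 to 7.84 CPM (median 6.81) in wt, at 11.1, 9.11, 9.34 and 7.36 in Del/+, at 6.44, 8.27, 10.3, 7.47 and 8.78 in Dup/+ and at 9.11, 7.06, 8.69 and 8.03 in Del/Dup. In each of the 3 rearranged genotypes 3 libraries were above all of wt, and the changes were 0.39 (adjusted p = 0.0974), 0.22 (0.565) and 0.23 (0.341). DESeq2 called Calb2 in Del/+ (adjusted p = 0.0371), while its edgeR estimate there was 0.076 with the thalamus and habenula covariate (adjusted p = 0.987). With the term for high multi-mapped share, where Del/+ was replicate 4 alone, that estimate was 0.067. Vip was at 11.8 to 15.9 CPM (median 14.1) in wt, at 19.7, 21.1, 13.9 and 20.1 in Del/+, at 10.6, 12.8, 17.2, 12.3 and 12.4 in Dup/+ and at 27.3, 11.8, 17.1 and 15.1 in Del/Dup. The Del/+ change of Vip was 0.42 against wt (adjusted p = 0.198) and 0.52 against Dup/+ (0.206), and with the thalamus and habenula covariate these turned to -0.31 and -0.11. Its highest level of all 19 libraries was in Del/Dup replicate 2, the library of that genotype with the highest neocortex sum.

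The remaining peptides and secreted proteins gave no call. Sst, which marks dendrite-targeting interneurons, was at 47.7 to 54.7 CPM (median 49.5) in wt, at 55.4, 52.5, 44.1 and 46.5 in Del/+, at 49.1, 48.3, 63.0, 52.6 and 56.1 in Dup/+ and at 48.4, 45.0, 63.3 and 48.6 in Del/Dup, with changes of -0.017, 0.099 and 0.035. Cck, a peptide that pyramidal cells also make, was at 114 to 162 CPM (median 125) in wt, at 128, 124, 123 and 100.7 in Del/+, at 136, 110.3, 139, 112 and 142 in Dup/+ and at 128, 123, 147 and 105 in Del/Dup. For both Sst and Cck the genotypes overlapped. Crh, corticotropin-releasing hormone, varied most of all listed genes, with a biological coefficient of variation of 0.230. It was at 0.931 to 1.63 CPM (median 1.10) in wt, at 1.97, 1.64, 0.763 and 1.72 in Del/+, at 0.619, 1.14, 0.836, 1.23 and 1.07 in Dup/+ and at 2.43, 1.52, 1.87 and 1.41 in Del/Dup, and its Del/Dup change of 0.59 ± 0.23 did not pass (adjusted p = 0.231). Tac1, the precursor of substance P, had a Del/Dup change of 0.36 (adjusted p = 0.312). Reln, the secreted protein of Cajal-Retzius cells and of a set of interneurons, had changes of -0.030, -0.067 and -0.095 in Del/+, Dup/+ and Del/Dup.

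The transcription factors that specify interneurons before birth gave no call. Dlx1 was at 14.5 to 17.2 CPM (median 15.8) in wt, at 17.3, 17.8, 16.5 and 15.0 in Del/+, at 16.7, 17.4, 17.6, 17.7 and 17.3 in Dup/+ and at 16.9, 16.1, 20.3 and 15.8 in Del/Dup. In Dup/+ 4 of 5 libraries for Dlx1 were above all of wt, and the change was 0.14 (unadjusted p = 0.0537, edgeR adjusted p = 0.560). Lhx6, needed for Pvalb and Sst interneurons, was at 3.17, 2.98, 3.17 and 2.72 CPM on average in wt, Del/+, Dup/+ and Del/Dup. Dlx5 was at 1.85, 1.64, 1.68 and 1.46 CPM in the same order. Sp8, a factor of Vip and Reln interneurons, had 10 to 34 reads per library, and its Dup/+ change of -0.42 had a 95% interval of -0.91 to 0.077.

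How the listed genes varied between animals of the same genotype was examined next, as deviations of log2(CPM + 0.5) from the genotype mean over the 19 libraries, with permutation of libraries within genotypes. Of 8 gene pairs computed, Gabra2 and Gabrb1 varied together (Pearson r = 0.74, Spearman rho = 0.72, unadjusted permutation p = 0.000230 and 0.000630, adjusted over the 8 pairs = 0.00184 and 0.00504). Without the 2 libraries farthest from the median of Gabra2, r was 0.67, and it was 0.77 within the libraries of low multi-mapped share (n = 11, a genotype with a lone library left out) and 0.89 within those of high share (n = 7). Vip and Calb2 had r = 0.57 (permutation p = 0.0212, adjusted 0.0625) and rho = 0.61 (p = 0.0122, adjusted 0.0489), and r was 0.52 without the 2 libraries farthest from the median of Vip. Gad1 and Gad2 had r = 0.57 (permutation p = 0.0234, adjusted 0.0625) and rho = 0.50 (p = 0.0495, adjusted 0.132), and r was 0.37 without 2 libraries. The pairs Gad1 and Slc32a1, Pvalb and Lhx6, Gabra4 and Gabrd, Gabbr1 and Gabbr2, and Gphn and Gabra2 gave r between -0.183 and 0.33, none past the test. Points share a library, so these are relations within whole tissue and not within cells. The median biological coefficient of variation of the 29 genes was 0.105, against 0.0852 over all genes tested.

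Several of the genes followed the neocortex sum within genotypes, and they did so in both directions. Of 29 correlations, 7 passed by Pearson's r at an adjusted permutation p under 0.05. Such correlations were not computed for all genes, so the share of all genes that follow the sum is not known. For Gabra3 the 19 libraries gave r = 0.85, rho = 0.83, unadjusted permutation p = 8.00e-05 and 9.00e-05, adjusted p = 0.000773 and 0.000870. For Pvalb they gave r = 0.84, rho = 0.88, unadjusted permutation p = 1e-05 and 1e-05, adjusted p = 0.000290 and 0.000290, where 1e-05 is the smallest p the 100000 resamples can give. Vip also rose with the sum (r = 0.64, rho = 0.64, unadjusted permutation p = 0.00478 and 0.00753, adjusted p = 0.0277 and 0.0391). These 3 genes were higher where the neocortex sum was higher. Gabra5 was lower there (r = -0.85, rho = -0.84, unadjusted permutation p = 2.00e-05 and 3.00e-05, adjusted p = 0.000290 and 0.000435). So were Gabra2 (r = -0.78, rho = -0.74, unadjusted permutation p = 0.00388 and 0.00749, adjusted p = 0.0277 and 0.0391) and Gabrg1 (r = -0.54, rho = -0.58, unadjusted permutation p = 0.01000 and 0.00808, adjusted p = 0.0483 and 0.0391). Gabrb2 was at the limit of the test (r = 0.55, rho = 0.51, unadjusted permutation p = 0.0118 and 0.0199, adjusted p = 0.0491 and 0.0721). The signs were the same without the 2 libraries farthest from the median sum, where r was 0.76 for Gabra3, 0.74 for Pvalb, 0.52 for Vip, -0.78 for Gabra5, -0.66 for Gabra2, -0.62 for Gabrg1 and 0.48 for Gabrb2. Since Tshz2 weighs on the sum, each relation was repeated without it. Then 7 genes passed, and 5 of them were the same: Pvalb (r = 0.92, adjusted permutation p = 0.000725), Gabra3 (0.86, 0.00193), Gabra5 (-0.92, 0.000725), Gabra2 (-0.71, 0.0267) and Gabrg1 (-0.57, 0.0447). Gad2 (-0.62, 0.0389) and Gabrg3 (0.61, 0.0267) passed in this form alone, while Vip (0.66, 0.0552) and Gabrb2 (0.47, 0.0721) did not pass by r.

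The 7 genes that passed with the full sum kept their sign within either class of multi-mapped share. In the libraries of low share r was 0.83 for Gabra3, 0.93 for Pvalb, -0.79 for Gabra5 and -0.42 for Gabra2, and in those of high share it was 0.91, 0.86, -0.92 and -0.95 in that order. For Gabrb2, Vip and Gabrg1 it was 0.48, 0.45 and -0.61 at low share and 0.85, 0.72 and -0.58 at high share. With the sum over thalamus and habenula markers none of the 29 passed, and the lowest adjusted p was that of Pvalb (r = 0.73, rho = 0.63, unadjusted permutation p = 0.00290 and 0.00915, adjusted p = 0.0841 and 0.133). The neocortex relation was examined after the levels of these genes had been seen, and what share of the genotype differences it carries was not tested beyond the covariate fits.

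**Figure D4:**
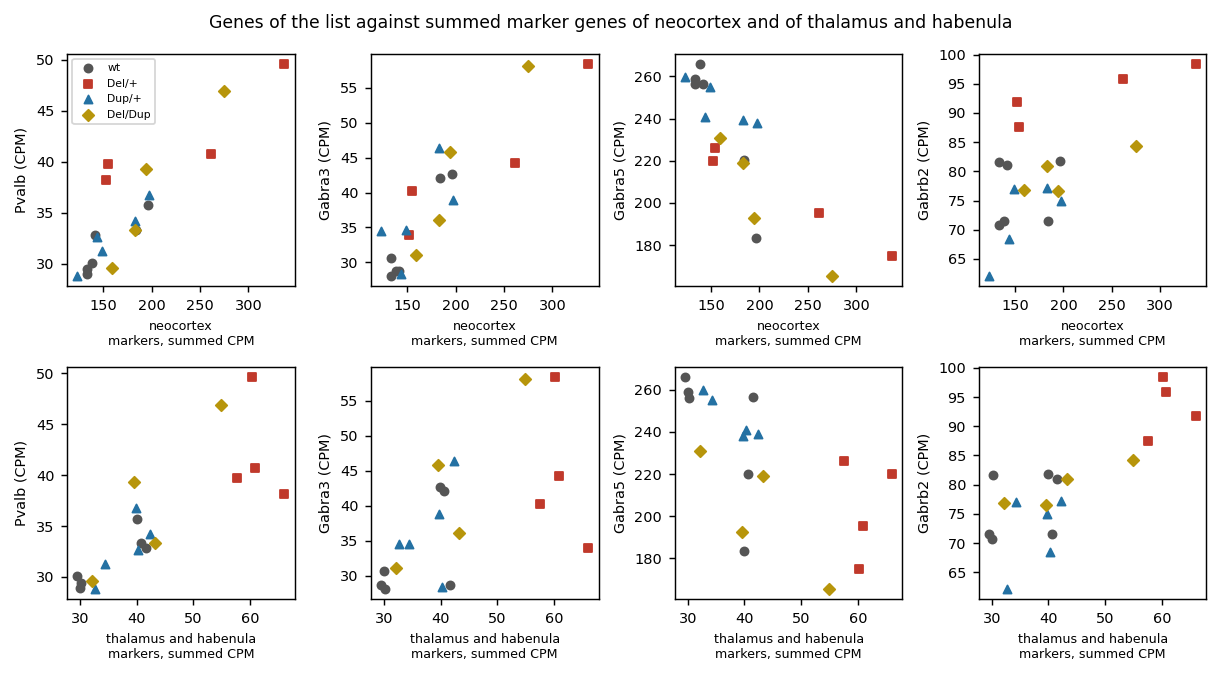
CPM of Pvalb, Gabra3, Gabra5 and Gabrb2 (vertical axes) against the summed CPM of neocortex markers (upper row) and of thalamus and habenula markers (lower row), 1 point per library, coloured by genotype. Pvalb and Gabra3 are highest and Gabra5 is lowest where the neocortex sum is highest. The 4 Del/+ libraries lie farthest to the right in the lower row, with Del/Dup replicate 2 close to them.

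Further genes of GABA signalling and of interneurons came from a list of 54 symbols. The files held 49 of them, and 45 were tested. The test called 1 of the 45 in Del/+ against wt, 0 in Dup/+, 0 in Del/Dup and 1 in Del/+ against Dup/+, where it called 0.771, 0.272, 0.0907 and 0.784% of all genes. At an unadjusted p under 0.05 the numbers were 14 (31.1%), 5 (11.1%), 9 (20%) and 11 (24.4%), against 18.4, 8.94, 16.2 and 13.5% of all genes. DESeq2 called 3, 0, 0 and 1 of the 45, and 3.83, 0.518, 1.19 and 1.66% of all genes. Iqsec3 (ENSRNOG00000014083), a gephyrin-binding exchange factor of inhibitory synapses, was lower in Del/+. It was at 316 to 396 CPM (median 355) in wt, at 303, 282, 315 and 272 in Del/+, at 321, 328, 332, 367 and 351 in Dup/+ and at 295, 349, 303 and 311 in Del/Dup, so that all 4 Del/+ libraries were below all of wt, as for 417 of all 15440 genes. The change was -0.28 ± 0.062 (edgeR adjusted p = 0.0409), and 9 of the 19 fits that left out 1 library lost the call, which were the fits without wt replicate 1 (0.0824), wt replicate 2 (0.0544), wt replicate 3 (0.0952), wt replicate 5 (0.0557), wt replicate 6 (0.0687), Del/+ replicate 2 (0.164), Del/+ replicate 4 (0.163), Dup/+ replicate 5 (0.0511) and Del/Dup replicate 5 (0.0505), adjusted p in parentheses. In these fits the change was -0.24 to -0.29. The estimate was -0.093 with the thalamus and habenula covariate (adjusted p = 0.965), -0.20 with the neocortex sum (0.277) and -0.20 without the 3 libraries of highest neocortex sums (0.384). The call was also lost, at changes of -0.26 to -0.28, with the replicate block (0.0657), the level of Ttr as a covariate (0.101), only the wt and Del/+ libraries (0.0557), no filter on low counts (0.0506) and wt replicate 5 moved to the Dup/+ group (0.0512). It was lost as well where the estimate was larger, at -0.35 with the thalamus and habenula covariate without Slc17a6 and Prkcd (0.163). With the share term, where Del/+ was replicate 4 alone, the change was -0.38.

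Kcnc2 (ENSRNOG00000004077), a potassium channel subunit that lets fast-spiking interneurons repolarize quickly, was higher in Del/+ than in Dup/+. It was at 106 to 116 CPM (median 111) in wt, at 119.6, 132, 127 and 113 in Del/+, at 98.2, 99.3, 110.2, 107 and 107 in Dup/+ and at 116, 104, 107 and 107 in Del/Dup. The change was 0.24 ± 0.048 (edgeR adjusted p = 0.0201) and the slope per copy -0.12 (adjusted p = 0.0236). Leaving out Del/+ replicate 2 (0.0971), Del/+ replicate 3 (0.0555), Dup/+ replicate 1 (0.0605) and Dup/+ replicate 2 (0.0709) ended the call against Dup/+, adjusted p in parentheses, and leaving out Del/+ replicate 2 (0.105), Del/+ replicate 3 (0.0768), Dup/+ replicate 1 (0.0661) and Dup/+ replicate 2 (0.0808) ended that of the slope. In these fits the change was 0.21 to 0.23 and the slope -0.10 to -0.11. Kcnc2 is expressed in thalamus as well, and with the thalamus and habenula markers as a covariate its Del/+ against Dup/+ change was 0.19 (adjusted p = 0.731) and its slope -0.092 (0.377), or 0.17 (0.468) and -0.087 (0.465) without Slc17a6 and Prkcd in the sum. The call against Dup/+ and that of the slope were lost as well with the neocortex sum (changes of 0.22 and -0.11, adjusted p = 0.0885 and 0.0813), the replicate block (0.24 and -0.11, 0.0571 and 0.0771) and without the 3 libraries of highest neocortex sums (0.25 and -0.11, 0.0521 and 0.119). The call against Dup/+ was lost with only the Del/+ and Dup/+ libraries too (0.24, 0.0723). With the share term the slope call was lost (-0.11, adjusted p = 0.196), and the change against Dup/+, for Del/+ replicate 4 alone, was 0.12.

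The chloride carriers that set the direction of the GABA current did not pass, though Slc12a2 was close to the threshold. Slc12a2, the importer, was at 146 to 165 CPM (median 149) in wt, at 153, 185, 181 and 223 in Del/+, at 153, 169, 153, 159.6 and 151 in Dup/+ and at 175, 149, 167 and 169.7 in Del/Dup, with a Del/+ change of 0.29 (edgeR adjusted p = 0.0650). It was called by DESeq2 (adjusted p = 0.0119), and by edgeR without Del/+ replicate 1 (0.00632), Del/Dup replicate 2 (0.0457) or Del/Dup replicate 3 (0.0420). With a term for high multi-mapped share, where Del/+ was replicate 4 alone, the estimate was 0.55. The estimate was 0.14 with the thalamus and habenula covariate (adjusted p = 0.954) and 0.14 without the 3 libraries of highest neocortex sums (0.525). Slc12a5, the exporter of mature neurons, had a Dup/+ change of -0.13 (adjusted p = 0.489). Slc12a2 is also made by oligodendrocytes and choroid plexus, and the summed level of 5 oligodendrocyte markers was 5405 to 8157 CPM in Del/+ against 4565 to 5951 in wt. These ranges overlap. Of the 5 markers 4 were higher in Del/+ at an unadjusted edgeR p under 0.05, and 0 were called. Their part in the Slc12a2 values was not tested. In Del/Dup the GABA uptake carrier of astrocytes, Slc6a11, was at 49.3, 53.6, 52.8 and 52.1 CPM against 56.2 to 64.3 CPM (median 60.5) in wt, with all 4 libraries below wt (as for 1.22% of all genes) and a change of -0.21 (adjusted p = 0.156). Slitrk3, an adhesion protein of inhibitory synapses, had a Del/Dup change of -0.23 (adjusted p = 0.201), and Gabrr2, a rho subunit, a Dup/+ change of -0.64 (adjusted p = 0.480).

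Del/+ was last set beside Del/Dup, a comparison added after the levels had been seen. Both genotypes carry the deleted chromosome and most of their libraries have a high multi-mapped share, and they differ in interval copies. Gabrb2 was 0.23 higher in Del/+ on the log2 scale (unadjusted p = 0.00308, edgeR adjusted p = 0.268) and did not pass. Within the libraries of high share the difference was 0.21 (adjusted p = 0.438). Tac3 was at -0.36 in the same direction of comparison (adjusted p = 0.576). Between Del/+ and Del/Dup edgeR called 0 of the 29 genes, and 0.175% of all genes (0.153% within the libraries of high share).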

How the data were processed

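Hippocampal RNA of 19 male rats was sequenced as stranded, single-end libraries on an Illumina HiSeq instrument. The labels' protocol describes removal of ribosomal RNA, while their molecule field and the methods name polyA RNA, and the files do not settle which was used. Per the methods and labels, the authors aligned reads with HISAT2 to rn6 and counted them with HTSeq. They deposited raw counts per Ensembl gene for each library, with 5 summary lines that were set aside here (no feature 6.94 to 16.1%, ambiguous 0.142 to 0.334%). How strand entered the counting is not given in the sources used here.

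Genes were filtered with filterByExpr and scaled by TMM, and quasi-likelihood F tests were run in edgeR 4.0.16 (R 4.3.3, prior count 2) on all 19 libraries with a mean per genotype. P-values were adjusted over 15440 genes. DESeq2 1.42.0 was an alternative, among 15 beside leaving out each library. The code was tested on simulated data. Levels are not compared between genes, since gene lengths of the build used were not at hand. Replicates are separate animals as far as the labels tell, and no pair agreed within counting noise (chi-square per degree of freedom 3.52 to 59.3). The members and lists were chosen with earlier results of these data known.

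Values of every library are given for listed genes called in any comparison, the 3 of smallest p in each comparison, and Gad1, Gad2, Slc32a1, Pvalb, Sst, Vip, Cck and Npy. Genes of the wider list are named where called or among the 2 of smallest p against wt. Values by library of Gabra3 and Gabra5 were added after they were seen. Symbols were paired with the Ensembl identifiers of the files through a RefSeq gene table. Promoters and chromosomes are from RefSeq (GRCr8), in which 24 listed genes had a promoter. Intervals are 95%.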

Additional observations from a re-analysis of the deposited data

Results flagged for a closer look

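Gabrb2 and Tac3 differed between Del/+ and Dup/+ by a direct test, with log2 fold changes between these genotypes of 0.38 for Gabrb2 and -0.73 for Tac3 (edgeR adjusted p = 0.00373 and 0.0340). Both calls were lost with the thalamus and habenula covariate, where the changes were 0.24 and -0.98 (adjusted p = 0.730 and 0.190), or 0.36 and -0.52 without Slc17a6 and Prkcd in the sum (0.182 and 0.486). They were also lost without the 3 libraries of highest neocortex sums, at 0.32 and -0.79 (0.134 and 0.196). With the term for high multi-mapped share, where Del/+ was replicate 4 alone, the changes were 0.41 and -0.56. In this comparison neither gene changed sign under the 33 alternatives, and with the thalamus and habenula covariate Gabrb2 had its smallest and Tac3 its largest change. All Del/+ libraries were highest in that marker sum, so the signal and the genotype cannot be told apart.

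Single libraries far from the rest of their genotype were found 4 times in 116 groups of values examined, where chance would give about 5.8. Gabrg3 was at 6.39 CPM in wt replicate 5, the library with conflicting labels, against 4.62 to 5.21 in the other wt libraries. Slc32a1 was at 68.6 CPM in Dup/+ replicate 3 against 58.9 to 61.2 in the others. Reln was at 161 CPM in wt replicate 4 against 199 to 214 in the other wt libraries, and at 218 CPM in Del/+ replicate 3 against 185 to 187 in the other Del/+ libraries.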

How the results depend on the processing

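The number of listed genes called in Del/+ against wt was 1, and it was 3 by DESeq2 (with Pvalb and Calb2), 2 with only the groups compared and with the neocortex covariate without Tshz2 (both with Pvalb), and 0 with the replicate block, with the covariate for neocortex or for thalamus and habenula markers (the latter also without Slc17a6 and Prkcd), and without the 3 libraries highest in neocortex markers. Leaving out 1 library gave 0 to 2. In Del/+ against Dup/+ the number was 2, and it was 1 with only the groups compared and with the neocortex covariate, with or without Tshz2, 0 with the thalamus and habenula covariate in both forms and without the 3 libraries, and 1 to 2 with 1 library left out. For Del/+ against wt or Dup/+ no number is given with the term for high multi-mapped share, where Del/+ was replicate 4 alone. For the slope the number was 2, and it was 1 with the neocortex covariate, 0 with the share term, the thalamus and habenula covariate in both forms and without the 3 libraries, and 1 to 2 with 1 library left out. The numbers in Dup/+ and Del/Dup against wt were 0 under every alternative run. The cause of these moves was not tested, and the covariate fits and the fits without 3 libraries were chosen after seeing the data. Animals with the same replicate number had correlations of -0.222 to 0.137 over the genes tested, which cannot settle whether the number marks a pairing or a shared batch. With the replicate block Gabrb2 in Del/+ had an adjusted p of 0.0731 at a change of 0.29. Gabrb2 stayed called in Del/+ when the wt library of conflicting labels was placed in Dup/+ (adjusted p = 0.0395).

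For the genes called or of smallest p in each comparison, 664 alternatives kept direction and side of the threshold, 82 lost the call, 11 gained one and 3 reversed. Only results called in the main fit can lose a call, so the 82 are not to be read against all of these fits. These 3 reversals, which leave out the other listed genes, were those of Pvalb with the thalamus and habenula covariate, at -0.0632 in Del/+ against wt, -0.0460 against Dup/+ and 0.00505 for the slope. Over all 29 genes 50 of 957 estimates changed sign in Del/+ against wt, 47 of 986 in Dup/+, 22 of 957 in Del/Dup, 66 of 957 in Del/+ against Dup/+ and 72 of 928 for the slope, none of them to a call. Weak correlations also changed sign. Within libraries of low share r was -0.0292 for Gad1 and Slc32a1, 0.370 for Pvalb and Lhx6 and 0.372 for Gphn and Gabra2. Within those of high share it was -0.632 for Gabra4 and Gabrd, and with scaling by library size alone -0.0792 for Gabbr1 and Gabbr2. Over all genes DESeq2 called 591 in Del/+ and 183 in Del/Dup, where edgeR called 119 and 14. Gabra6 had 2 to 20 reads per library and Sp8 10 to 34.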
